A study of Rattus norvegicus with 8 samples.

Results

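Curated noncoding RNAs of RefSeq were followed across all 8 arrays of the study. The members were chosen by name alone, as the probes that are not controls and whose systematic name starts with NR_ (a RefSeq accession of a rat noncoding RNA) or MRNR_ (taken here as the counterpart of a mouse accession of that kind). There were 72 such probes, 26 with NR_ and 46 with MRNR_ names, of 24684 probes in all and of 9361 probes for long noncoding RNA (lncRNA). NNK, a nitrosamine of tobacco smoke and a lung carcinogen, had been given to male F344 rats, and at week 95 their total RNA was hybridised to the rat lncRNA array of Arraystar, a 1-colour Agilent design that also holds mRNA probes. The normal lung group was 3 normal lung tissues of NNK-treated rats. The lung tumor group was 3 matched lung cancer tissues of NNK-treated rats, which the methods describe as moderately differentiated adenocarcinoma. Both lung groups therefore carried the NNK treatment, and no lung of an untreated rat was on these arrays. The blood groups were 1 clot of whole blood from the control group and 1 from the NNK group. For the NNK clot the free-text description is that of a lung cancer sample, whereas the other labels say clot, and the array was used as blood.

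Noncoding RNAs act as RNA and are not translated into protein. Some are parts of enzymes, such as the RNA of ribonuclease P, which trims transfer RNA precursors, and the RNA template of telomerase, which extends chromosome ends. Others are hosts of small nucleolar RNAs, antisense transcripts of a neighbouring gene, pseudogenes that resemble a coding gene, or noncoding transcripts of a coding gene.

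Of the 26 NR_ accessions, 19 were matched to a gene symbol in the RefSeq table (assembly GRCr8), and 7 were not. The mouse counterparts are not paired with a gene in the sources used here and keep the name on the array. Of the matched members, Abhd11-as1 (NR_026689) and, with outlier-marked spots kept, Gas5 (NR_002704) were at least 2-fold higher in lung tumor than in normal lung. Their promoters are printed for that reason, from 250 bases before to 50 bases after the start site, on the plus strand of GRCr8. Capitals mark GGGCGG or its reverse complement CCGCCC, the GC box bound by Sp1-type factors.
Gas5, chr13:75836713-75837012: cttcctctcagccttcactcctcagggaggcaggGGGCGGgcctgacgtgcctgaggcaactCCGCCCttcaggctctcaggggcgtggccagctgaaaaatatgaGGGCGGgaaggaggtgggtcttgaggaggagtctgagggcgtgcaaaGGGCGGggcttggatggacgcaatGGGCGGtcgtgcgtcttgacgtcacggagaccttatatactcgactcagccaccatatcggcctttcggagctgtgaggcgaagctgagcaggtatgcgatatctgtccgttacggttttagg
Abhd11-as1, chr12:27317406-27317705: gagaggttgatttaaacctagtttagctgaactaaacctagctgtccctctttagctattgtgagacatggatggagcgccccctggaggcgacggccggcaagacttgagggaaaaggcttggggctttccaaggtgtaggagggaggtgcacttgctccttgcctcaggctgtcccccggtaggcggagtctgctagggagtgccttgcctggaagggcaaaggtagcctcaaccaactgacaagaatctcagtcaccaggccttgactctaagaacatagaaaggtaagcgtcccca
The Gas5 window held 5 GC boxes, 4 on the plus and 1 on the minus strand, and its GC content was 60.3%. The Abhd11-as1 window held none, with a GC content of 54.3%. On either strand, neither window held the letters CCAAT, nor those of TATAAA, nor those of ATGCAAAT, nor those of CACGTG. Over 33469 promoters of the same length the median GC content was 51.7%, and 33.1% of them held GGGCGG, 37.5% CCAAT, 14.2% TATAAA, 1.78% ATGCAAAT and 6.42% CACGTG. Of the 14 members with a promoter in the table, 4 held GGGCGG. These matches describe letters only and are not evidence of binding.

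Every member was printed as 3 spots on each array. Signals are given as log2 of the background-subtracted signal, quantile-normalized within the 6 lung arrays or within the 2 blood arrays, and spots that the scanner software marked as outliers were left out unless stated otherwise. Outlier marks fell on 3.70% to 7.87% of the members' spots on normal lung arrays and on 9.72% to 20.8% on lung tumor arrays. The arrays of one group were very alike. The mean squared difference between 2 normal lung arrays was 0.464 to 0.788 of what the spread between spots alone would give, and between lung tumor 2 and 3 it was 0.464. Lung tumor 1 differed from the other tumors (ratios of 3.01 and 3.34). Nothing in the labels shows that these arrays were separate animals in every case. The p-values here therefore measure the spread between arrays, which may be technical. Most calls are also given with the arrays that differed by less than spot noise counted once, but that of AA926063 (NR_002156) is not. By the scan times in the file headers, the 3 normal lungs and lung tumor 1 were scanned together, and lung tumor 2 and 3 apart from them. Detection of marker genes was checked on the labelled tissues. All 5 type 2 alveolar genes on the array were detected on all 6 lung arrays, and all 5 red blood cell genes on both blood arrays. The same 5 red blood cell genes were also detected on all 6 lung arrays, and 2 type 2 alveolar genes on both blood arrays. Detection alone therefore did not tell lung from blood.

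Members were detected in lung and in blood about as often as the probes of the array at large. Detection required that over 50% of a member's spots on the array be marked as well above background. Of the 72 members, 41 (56.9%) were detected on all 6 lung arrays, 33 (45.8%) on both blood arrays, 28 (38.9%) on all 8 arrays and 17 (23.6%) on none. Over all probes these shares were 56.3%, 47.7%, 38.8% and 20.4%. For the other lncRNA probes the shares were 37.6% in lung, 36.2% in blood and 34% on none, and for mRNA probes 67.7%, 54.6% and 12.2%. The NR_ members were detected on all 6 lung arrays in 17 of 26 (65.4%) and the mouse counterparts in 24 of 46 (52.2%). In blood the shares were 65.4% and 34.8%. Only 2 NR_ members (7.69%) were detected nowhere, NR_002154 (E230034O05Rik) and NR_002316 (CB741658), compared with 15 mouse counterparts (32.6%). This gap depended on the rule. When any spot sufficed, 2 NR_ members (7.69%) and 4 mouse counterparts (8.7%) were detected nowhere, against 12.9% of all probes. Without the outlier-marked spots, 18 members (25%) in place of 28 were detected on all 8 arrays, compared with 25.9% of all probes.

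**Figure D1:**
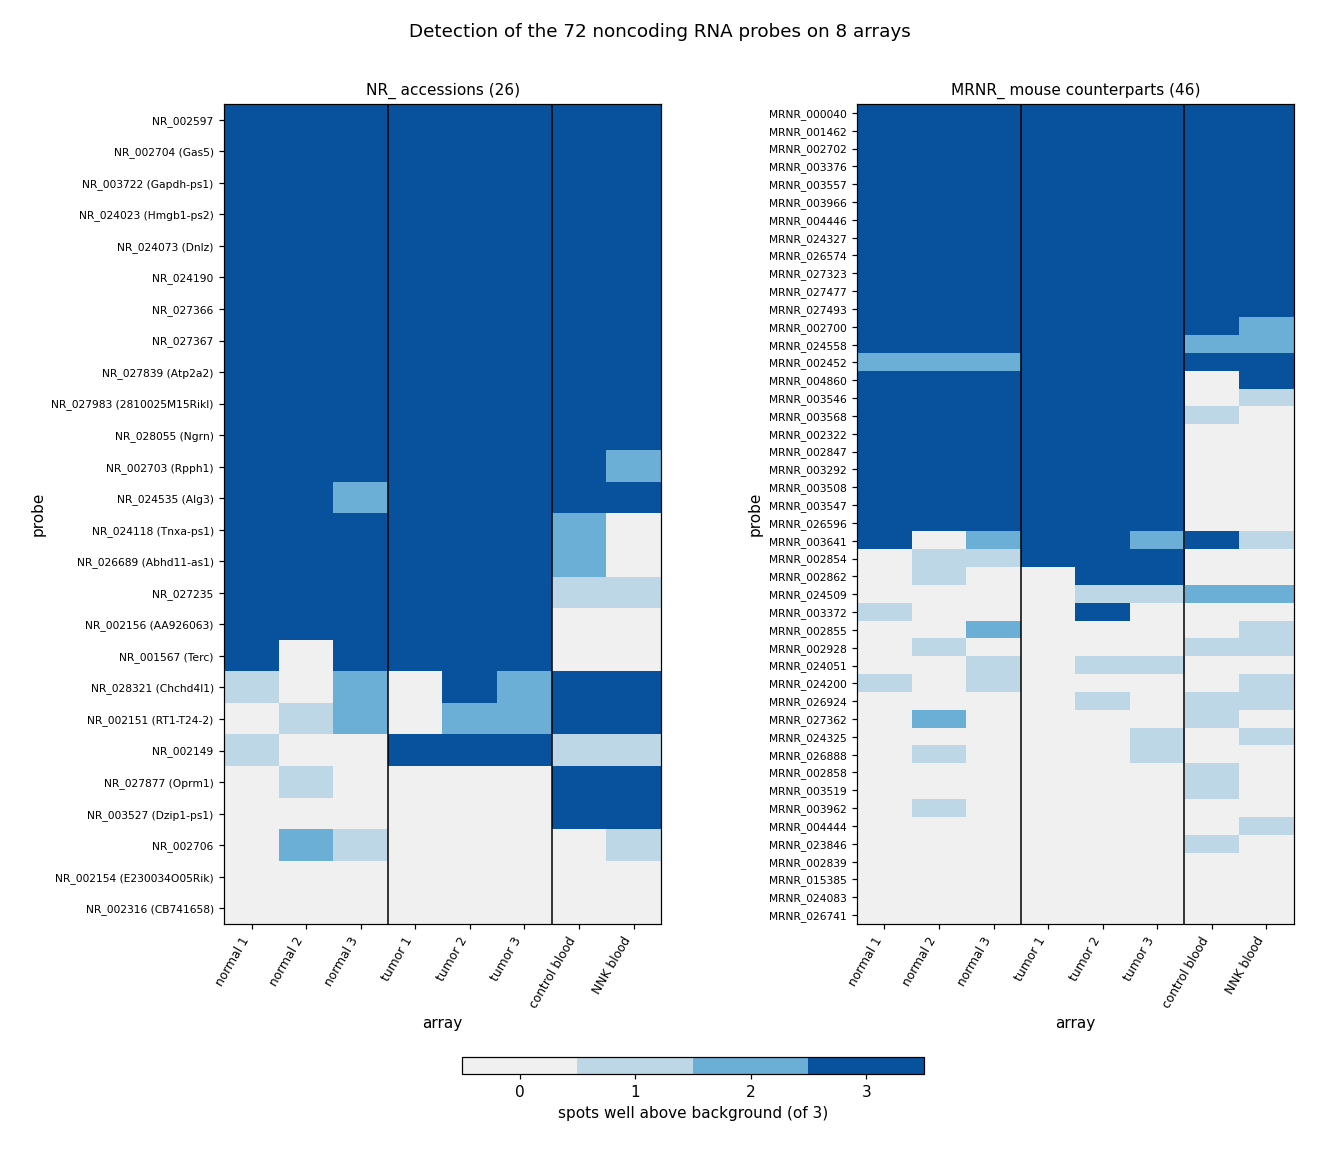
Number of spots well above background, of 3, for each of the 72 members (vertical axis) on the 3 normal lung, 3 lung tumor and 2 blood arrays (horizontal axis); darker means more spots. Of the 72 probes, 28 were detected on all 8 arrays, and 10 on all 6 lung arrays and neither blood array.

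The next members were chosen for the highest mean rank percentile over all arrays, lung and blood together. High ranks in each tissue therefore follow largely from that choice, and the values are a description only. NR_002597, which has no match in the RefSeq table, had a mean rank percentile of 99.6 on normal lung, 99.4 on lung tumor and 99.4 on blood arrays among all probes of the same array. MRNR_003557 stood at 99.1, 99.8 and 97.3, MRNR_003376 at 91.3, 91.4 and 97.8, and MRNR_024327 at 94.5, 94.3 and 86.3. Percentiles rank a probe on its own array, and a brighter probe need not have the more abundant transcript.

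In the comparison of lung tumor with normal lung, 47 members passed the filter (detected on at least 3 of the 6 lung arrays) and 39 could be tested. The other 8 had too few unmarked spots, among them Gas5. At a fold change of 2 and an adjusted p of 0.05 over all 12471 probes tested with limma, 3 members rose (7.69% of 39, against 13.5% of all probes) and 5 fell (12.8%, against 15.5%). Among lncRNA probes alone the shares were 17.9% and 12.5%. At any fold, 16 members (41%) rose and 7 (17.9%) fell by adjusted p, compared with 33.7% and 31.4% of all probes. The median log2 fold change was 0.06 for the members and 0.07 for all probes tested. Of the 3 that rose, MRNR_002854 and NR_002149 passed the filter through the tumor arrays alone, so they had to differ, and the count of 3 is a description only. With detection required on all 6 lung arrays, 1 member rose (11.3% of all probes) and 5 fell (15.6%). With the outlier-marked spots kept, 47 members were tested, of which 6 rose and 5 fell (13.5% and 14.4% of 15803 probes, or 18.3% and 12.2% of lncRNA probes). The added members were Gas5, MRNR_002700 and MRNR_027477. At any fold 21 then rose and 9 fell, against 34.5% and 31.6% of all probes. With a 75th percentile shift in place of quantile normalization 5 rose and 5 fell (15.8% and 14.6% of all probes), and in the authors' normalized values 6 rose and 5 fell (13.1% and 13.6%). When near-identical arrays entered as 1 value, which leaves 1 normal and 2 tumor values, 3 rose and 3 fell (6.31% and 7.92% of 12327 probes). In that fit the counts over all probes were 778 higher and 976 lower both at any fold and at 2-fold, so it passed no difference under 2-fold and says nothing of smaller ones. With the scan as a block, which compares lung tumor 1 with the normal lungs of the same scan, 4 rose and 4 fell (13.3% and 13.2%). These are bulk tissues, in which fewer cells of a type and less RNA per cell cannot be told apart.

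**Figure D2:**
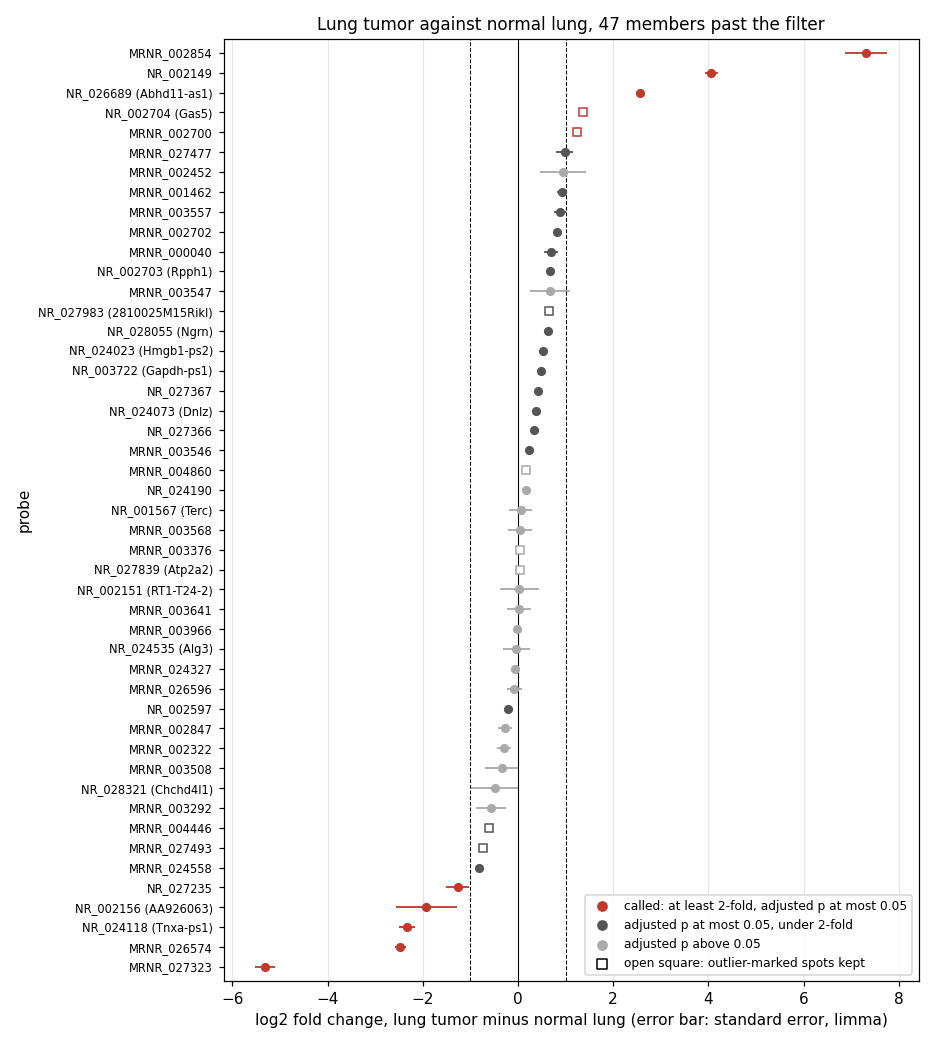
Log2 fold change of lung tumor over normal lung (horizontal axis, error bar: standard error from limma) for the 47 members past the filter (vertical axis). Red marks members at least 2-fold changed with an adjusted p of at most 0.05, dark grey an adjusted p of at most 0.05 under 2-fold, light grey the rest, and open squares values with outlier-marked spots kept; the lowest value is -5.31 (MRNR_027323). MRNR_002854 and NR_002149 are drawn at their fitted difference but were not detected in normal lung, where the data give only a bound.

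Abhd11-as1 (NR_026689), named as an antisense RNA of the gene Abhd11, rose in lung tumor. Its log2 signal was 7.58, 7.53 and 7.67 on the normal lung arrays and 10.31, 10.11 and 10.07 on the lung tumor arrays. Every tumor array lay far above every normal array, and no spot was marked on any of them. The log2 fold change was 2.57 ± 0.08 (SE, n = 3 and 3; limma adjusted p = 1.04e-05), a 5.92-fold rise. With near-identical arrays counted once it was 2.60, with an adjusted p of 0.0351. Its neighbour Stx1a, which encodes syntaxin 1A of vesicle fusion, had a log2 fold change of 0.17 ± 0.12 (adjusted p = 0.237) on 3 and 3 arrays. Abhd11, on its other side, was not matched to a probe here.

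Gas5 (NR_002704), the host gene of several C/D box small nucleolar RNAs and named for its accumulation in growth-arrested cells, was not testable without its marked spots, since 7 of 9 spots on normal and all 9 on tumor arrays carried an outlier mark. With them kept, its log2 signal was 10.26, 10.22 and 10.18 in normal lung and 11.71, 11.49 and 11.55 in lung tumor. The groups did not overlap, and the log2 fold change was 1.36 ± 0.07 (limma adjusted p = 4.10e-05, or 0.0460 with near-identical arrays counted once). Under normexp background correction the change was 0.78, below 2-fold. Of the 6 core proteins of small nucleolar ribonucleoproteins that were tested, none reached 2-fold, and 3 rose by adjusted p, as did 33.7% of all probes: Fbl (fibrillarin, the C/D box methyltransferase) by 0.84 ± 0.05, Nop58 by 0.47 ± 0.06 and Snu13 by 0.89 ± 0.06 on the log2 scale. Of 4 nonsense-mediated decay genes tested, the pathway known to degrade Gas5 transcripts in growing cells, Smg9 alone passed by adjusted p (0.39 ± 0.09, adjusted p = 0.0141) and none reached 2-fold. With marked spots kept, Upf3a passed as well, with a log2 fold change of -0.37 ± 0.06 (limma adjusted p = 0.00321).

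Signal above background for a further pair of members was found in tumor arrays and not in normal lung. NR_002149, without a match in RefSeq, had log2 signals of 2.65, 2.63 and 2.22 in normal lung and 6.61, 6.44 and 6.64 in lung tumor. It was not well above background on any normal array and on all 3 tumor arrays, so the difference is a bound: at least 6.55-fold higher in lung tumor. MRNR_002854 had log2 signals of 1.32, 2.78 and 1.23 in normal lung and 9.24, 9.06 and 8.96 in lung tumor. It too was detected on no normal array and on every tumor array, and was at least 37.7-fold higher in lung tumor. These bounds set the tumor mean against the lowest signal that counted as well above background. They hold for this background correction: under normexp, the fitted log2 differences were 1.21 for NR_002149 and 3.29 for MRNR_002854, both below the bounds. Both members passed the filter through the group where they are high, so no p is given for them. Neither was detected in blood. Among all probes, 2.16% had this pattern of 3 tumor and no normal arrays.

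Tnxa-ps1 (NR_024118), a pseudogene that resembles the tenascin X gene and lies in the major histocompatibility complex, fell in lung tumor. Its log2 signals were 11.72, 11.67 and 11.70 in normal lung and 9.72, 9.27 and 9.11 in lung tumor. The groups were well apart, with lung tumor 1 the highest of the tumors. The log2 fold change was -2.33 ± 0.17 (adjusted p = 0.000133, or 0.0488 with near-identical arrays counted once). Cyp21a1, the steroid 21-hydroxylase gene beside it, had a log2 fold change of 0.04 ± 0.07 (adjusted p = 0.672), and Atf6b, a stress-response factor on its other side, one of -0.94 ± 0.59 (adjusted p = 0.208). A probe may not separate near-identical copies, so this value is uncertain between Tnxa-ps1 and its parent.

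The largest fall among the mouse counterparts was that of MRNR_027323. It gave log2 signals of 10.37, 10.40 and 10.34 in normal lung and 5.51, 4.99 and 4.69 in lung tumor, and it remained well above background on all 3 tumor arrays. The log2 fold change was -5.31 ± 0.21 (adjusted p = 1.74e-05, or 0.0347 with near-identical arrays counted once), a 39.7-fold fall. MRNR_026574 gave 13.35, 13.31 and 13.32 in normal lung and 11.12, 10.72 and 10.73 in lung tumor, a log2 fold change of -2.47 ± 0.12 (adjusted p = 3.39e-05, or 0.0378 counted once). For both, every normal array was above every tumor array. Over the alternatives run, the log2 fold change ranged from -5.53 to -3.62 for MRNR_027323 and from -2.61 to -2.21 for MRNR_026574. The 39.7-fold size of the first therefore depends on the processing.

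A further pair of NR_ members passed the threshold less firmly. NR_027235, without a match, had log2 signals of 5.81, 5.56 and 5.48 in normal lung and 4.81, 4.32 and 3.92 in lung tumor, a fold change of -1.27 ± 0.24 on the log2 scale (adjusted p = 0.00623). It missed the threshold with near-identical arrays counted once (-1.15, adjusted p = 0.158), and fell short of 2-fold with the scan as a block (-0.81) and under normexp (-0.38). AA926063 (NR_002156), an lncRNA gene beside Daxx, had log2 signals of 11.04, 9.62 and 8.82 in normal lung and 8.59, 7.57 and 7.54 in lung tumor. The groups did not overlap, but normal lung 3 lay close to lung tumor 1, and the log2 fold change was -1.93 ± 0.64 (adjusted p = 0.0423). This call was lost under 9 of 20 alternatives, among them leaving out normal lung 1 (-1.32, adjusted p = 0.0611), normal lung 2 (-2.03, adjusted p = 0.0847), lung tumor 2 (-1.76, adjusted p = 0.119) or lung tumor 3 (-1.75, adjusted p = 0.117), and the adjusted p reached 0.295 with the scan as a block.

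**Figure D3:**
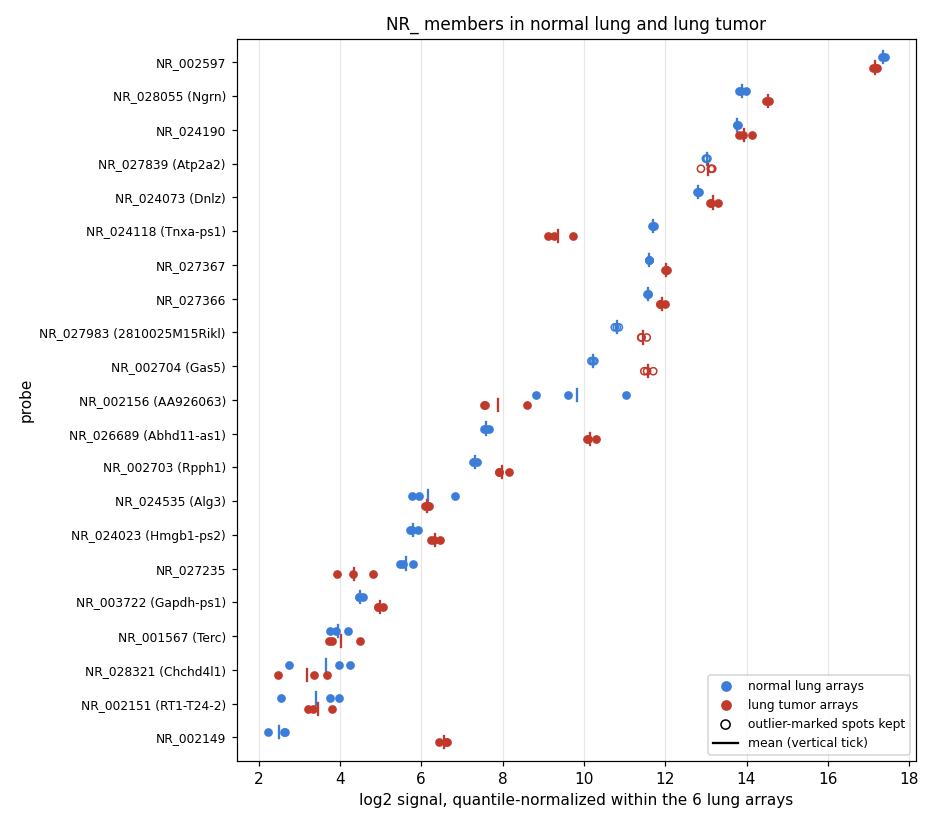
Log2 signal (horizontal axis) of the NR_ members past the lung filter (vertical axis) on the normal lung (blue) and lung tumor (red) arrays; a tick is the group mean, and open circles are values with outlier-marked spots kept. Abhd11-as1 lies between 7.53 and 7.67 in normal lung and between 10.07 and 10.31 in lung tumor, while the 3 normal values of AA926063 spread from 8.82 to 11.04.

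Of the enzyme RNAs, Rpph1 (NR_002703), the RNA subunit of ribonuclease P, rose by less than 2-fold. Its log2 signals were 7.27, 7.29 and 7.38 in normal lung and 8.16, 7.92 and 7.91 in lung tumor, and the fold change was 0.68 ± 0.09 (adjusted p = 0.00139). Of its protein partners, 8 were tested, 2 rose past 2-fold and 1 fell. Rpp21 rose by 1.21 ± 0.06 and Rpp40 by 1.19 ± 0.10, while Rpp25 had a log2 fold change of -2.14 ± 0.08. Pop4 (0.79 ± 0.08), Pop5 (0.92 ± 0.32), Pop7 (0.87 ± 0.05) and Rpp38 (0.73 ± 0.07) rose by adjusted p alone. The median of the 8 was 0.83, compared with 0.07 over all probes. Terc (NR_001567), the RNA template of telomerase, was dim: 4.21, 3.76 and 3.90 in normal lung and 4.50, 3.81 and 3.74 in lung tumor. The groups overlapped, and the log2 fold change was 0.06 ± 0.24 (adjusted p = 0.843). Terc was not detected in blood.

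Of the other pseudogenes, the pair detected in lung rose by less than 2-fold. Gapdh-ps1 (NR_003722), a copy of the glycolytic gene Gapdh, had log2 signals of 4.46, 4.46 and 4.57 in normal lung and 4.94, 5.07 and 4.95 in lung tumor, a rise of 0.48 ± 0.07 (adjusted p = 0.00166). Hmgb1-ps2 (NR_024023), a copy of a chromatin protein gene, had 5.78, 5.73 and 5.92 in normal lung and 6.23, 6.46 and 6.32 in lung tumor, a rise of 0.53 ± 0.09 (adjusted p = 0.00360). In both the tumor arrays were all above the normal arrays.  The probes of the coding genes, chosen after the values were seen, differed by 0.34 ± 0.28 for Gapdh (adjusted p = 0.319) and -0.16 ± 0.10 for Hmgb1 (adjusted p = 0.193) with marked spots kept. Transcripts of a pseudogene and of its parent can share a probe, so these values are uncertain. Dzip1-ps1 (NR_003527) was not detected in lung. RT1-T24-2 (NR_002151), a gene of the rat major histocompatibility complex, was near background in lung: 2.55, 3.75 and 3.97 in normal lung and 3.35, 3.20 and 3.81 in lung tumor, with a log2 fold change of 0.03 ± 0.41 (adjusted p = 0.951). Its sign turned with the processing. The neighbouring RT1-T24-3 fell by 1.16 ± 0.19 on the log2 scale (adjusted p = 0.00365). For Chchd4l1 (NR_028321), which is named for its likeness to a mitochondrial import gene, the log2 fold change was -0.48 ± 0.51 (adjusted p = 0.433).

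Among the accessions that RefSeq lists under coding genes, Ngrn (NR_028055) rose by 0.64 ± 0.08 (adjusted p = 0.00266), from 13.81, 13.85 and 13.98 in normal lung to 14.49 and 14.55 on the lung tumor arrays that kept a value. Dnlz (NR_024073), for a zinc finger partner of the mitochondrial chaperone, rose by 0.38 ± 0.07 (adjusted p = 0.00594). The coding transcripts of the same genes, by probes chosen after the values were seen, differed by 0.39 ± 0.16 (Ngrn, adjusted p = 0.0794, marked spots kept) and 0.33 ± 0.14 (Dnlz, adjusted p = 0.0932). Alg3 (NR_024535), for a mannosyltransferase of protein glycosylation, gave 5.76, 5.94 and 6.82 in normal lung and 6.18, 6.09 and 6.16 in lung tumor. Normal lung 3 stood apart there through 1 marked spot: with it kept its value was 5.86, and the fold change was 0.29 ± 0.07 (adjusted p = 0.0128) in place of -0.03 ± 0.29 (adjusted p = 0.926). Atp2a2 (NR_027839), for the calcium pump of the endoplasmic reticulum, had lost 7 of 9 tumor spots, and with them kept differed by 0.03 ± 0.09 (adjusted p = 0.760). 2810025M15Rikl (NR_027983), with 8 of 9 tumor spots marked, rose by 0.65 ± 0.06 with them kept (adjusted p = 0.000417).

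The remaining unmatched NR_ members showed small differences. NR_027366 rose by 0.34 ± 0.06 (adjusted p = 0.00454) and NR_027367 by 0.42 ± 0.05 (adjusted p = 0.000729). The pair had nearly the same signal in normal lung, 11.58, 11.56 and 11.58 for the first and 11.60, 11.59 and 11.60 for the second. NR_002597, the brightest member, fell by 0.20 ± 0.06 (adjusted p = 0.0222). It lay at 17.40, 17.36 and 17.32 in normal lung and 17.10, 17.20 and 17.18 in lung tumor, a small gap between tight groups. For NR_024190 the fold change was 0.17 ± 0.09 (adjusted p = 0.147), and NR_002706 was detected on normal lung 2 alone.

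Of the mouse counterparts, 26 passed the lung filter and 21 were tested. By adjusted p 7 rose (33.3%, against 33.7% of all probes), 3 fell (14.3%, against 31.4%) and 11 did not pass. Just under 2-fold lay MRNR_027477 (0.98 ± 0.18, adjusted p = 0.00831), MRNR_001462 (0.93 ± 0.10, adjusted p = 0.000649), MRNR_003557 (0.88 ± 0.12, adjusted p = 0.00154) and MRNR_002702 (0.83 ± 0.05, adjusted p = 9.86e-05). MRNR_003557 is among the brightest probes of the array, at 16.88, 16.98 and 16.92 in normal lung and 17.57, 17.92 and 17.94 in lung tumor. Its change reached 2-fold without lung tumor 1 (1.01), with quantile normalization over all 8 arrays (1.25), with a 75th percentile shift (1.00) and in the authors' normalized values (1.35). MRNR_024558 fell by 0.82 ± 0.08 (adjusted p = 0.000466). MRNR_002700 had every lung spot marked. With them kept it stood at 12.09, 12.18 and 12.08 in normal lung and 13.36, 13.33 and 13.37 in lung tumor, a log2 fold change of 1.24 ± 0.06 (adjusted p = 1.98e-05, or 0.0473 with near-identical arrays counted once). Other bright members did not differ beyond their spread: MRNR_024327 by -0.06 ± 0.05 (adjusted p = 0.313), MRNR_003966 by -0.02 ± 0.07 (adjusted p = 0.774) and, with marked spots kept, MRNR_003376 by 0.04 ± 0.06 (adjusted p = 0.576).

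**Figure D4:**
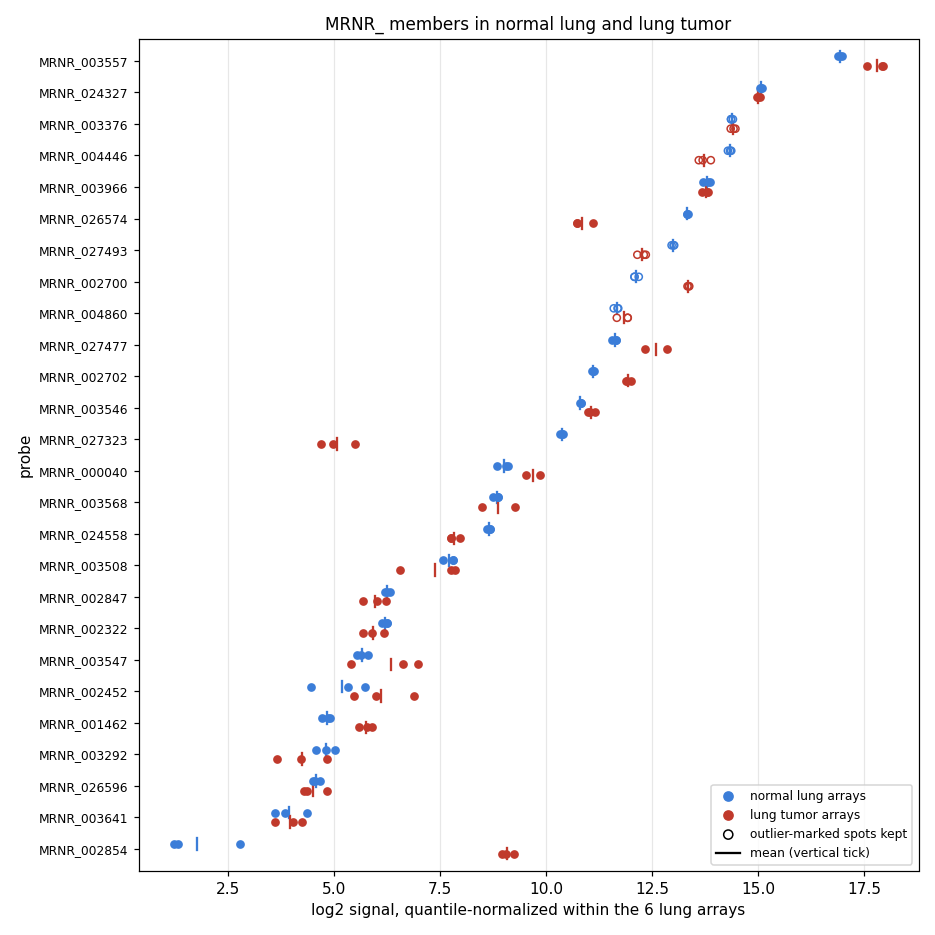
Log2 signal (horizontal axis) of the mouse counterparts past the lung filter (vertical axis) on the normal lung (blue) and lung tumor (red) arrays; a tick is the group mean, and open circles are values with outlier-marked spots kept. MRNR_027323 drops from at least 10.34 in normal lung to at most 5.51 in lung tumor, and MRNR_002854 is at most 2.78 in normal lung and at least 8.96 in lung tumor.

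Markers of several cell types differed between the same arrays, and their part in the members' differences was not tested. The sums below keep outlier-marked spots, whereas the tests leave them out. The summed linear signal of 6 type 1 alveolar genes was 934151 to 947139 in normal lung and 271640 to 282713 in lung tumor, with 3 of 4 tested genes falling. The other tested gene, Rtkn2, went the opposite way (0.9997 ± 0.22), just under 2-fold. Rtkn2 was detected on no normal and all 3 tumor arrays, so it passed the filter through the tumor arrays alone. The summed signal of 4 endothelial genes was 204785 to 213965 and 36802 to 37062, with both tested genes falling and Cdh5 not detected. Of 5 red blood cell genes tested, 4 fell by at least 2-fold (sums of 220009 to 228365 and 130885 to 139180). All 5 liver genes tested fell by at least 2-fold (sums of 23710 to 24807 and 1589 to 3345). Cdk1, a mitotic kinase and the 1 tested proliferation gene, rose by 2.52 ± 0.22 (adjusted p = 0.000279). Of the T cell, macrophage and smooth muscle genes tested (4, 2 and 1), none reached 2-fold, while 1 of 2 airway genes rose. Type 2 alveolar genes had sums of 806502 to 852412 in normal lung and 930483 to 950351 in lung tumor. They did not move together, and none of the 4 tested reached 2-fold. Sftpc, part of the sums, was not testable without its marked spots. With them kept it rose past 2-fold, by 1.14 ± 0.10 (limma adjusted p = 0.000258). By adjusted p, Lamp3 (0.83 ± 0.10) and Napsa (0.99 ± 0.05) rose, while Sftpb (-0.30 ± 0.07) and Sftpa1 (-0.26 ± 0.07) fell.

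In blood, where each group is 1 array, 37 members were detected on at least 1 array and were compared by size alone. At least 2-fold higher on the NNK array were 7 members (18.9%, against 23.1% of 14452 probes), and at least 2-fold lower were 6 (16.2%, against 19.1%). With outlier-marked spots kept there were 5 in each direction, against 23.2% and 18.9% of all probes. No test was possible with 1 array per group. The error given (spot SE) is the standard error of the difference between the spot means of the probe. It covers the array's own noise and not the spread between rats.

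Of the 7 members that were higher, 1 was at least 2-fold higher under every alternative run, and of the 6 that were lower, 1 was at least 2-fold lower under every one. MRNR_026574 was the first of these, with a log2 signal of 7.15 on the control array and 9.30 on the NNK array (2.15 ± 0.10, spot SE). It is also among the members that fell in lung tumor. MRNR_003557 gave 12.60 and 14.02 (1.42 ± 0.05), but the difference was 0.45 with a 75th percentile shift, 0.88 in the authors' values and 0.92 with quantile normalization over all 8 arrays. MRNR_027477 gave 9.23 and 10.995 (1.77 ± 1.18), which became 0.89 with marked spots kept. Alg3 (NR_024535) was very bright in blood, at 13.29 and 14.76, but its difference of 1.48 had a spot SE of 1.65 and turned to -0.40 with marked spots kept. Ngrn gave 7.61 and 8.68 (1.07 ± 0.15).

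RT1-T24-2 was the member at least 2-fold lower under every alternative, with 7.81 and 5.82 (-1.99 ± 0.32) and a range of -3.45 to -1.25. MRNR_000040 gave 7.02 and 5.12 (-1.90 ± 0.11), and -0.98 under normexp. The order of these members changed with the processing. For MRNR_003966 (9.29 and 7.75) and MRNR_002702 (7.35 and 6.15) the differences of -1.54 and -1.20 had spot SEs of 1.04 and 0.86, and shrank to -0.38 and -0.28 with marked spots kept. Tnxa-ps1 gave 5.602 and 3.96 (-1.64 ± 1.33) and was not detected on the NNK array, so the size of its difference is uncertain. Over the alternatives it ranged from -2.79 to -0.76. Abhd11-as1 was near background in blood, at 4.47 and 4.14, a difference of -0.32 with a spot SE of 1.25, and was detected on the control array alone. The difference was -1.05 with marked spots kept and -2.15 in the authors' values. Gas5 stood at 9.63 and 8.99 (-0.65 ± 0.05), and Rpph1 at 6.998 and 6.03 (-0.97 ± 1.54).

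**Figure D5:**
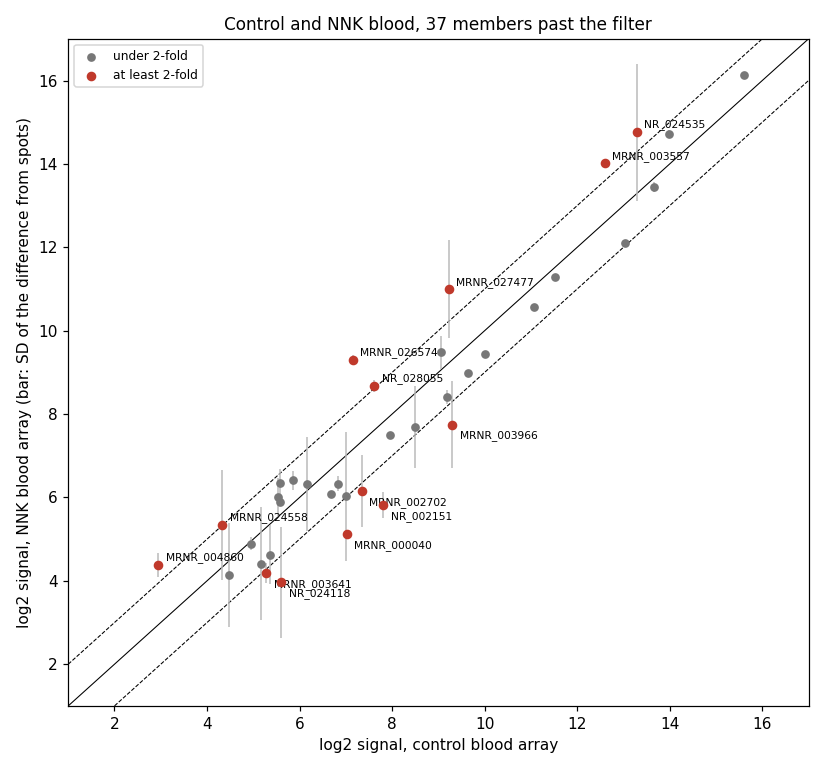
Log2 signal on the control blood array (horizontal axis) and the NNK blood array (vertical axis) for the 37 members past the blood filter. The bar, labelled SD on the axis, is the standard error of the difference between spot means. The solid line is equality and the dashed lines are 2-fold. Red points are at least 2-fold apart, 7 above and 6 below, and the bar of Alg3 (NR_024535) spans 1.65 to either side.

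The 2 blood arrays also differed in blood cell markers, whose part in these differences was not tested. The values below keep outlier-marked spots. The summed signal of 2 neutrophil genes was 14652 on the control and 70166 on the NNK array, and that of 4 platelet genes 150370 and 85280. The sums of 5 red blood cell genes were 1480157 and 1441651. By gene the log2 differences were 0.13 (Alas2), 0 (Hbb), -0.82 (Slc4a1), -0.84 (Ahsp) and -0.43 (Epb42). For 5 T cell genes the median log2 difference was 1.97, with sums of 18328 and 16161.

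Some members were seen in one tissue and not in the other. On all 6 lung arrays and neither blood array 10 members were detected (13.9%, compared with 11.6% of all probes). The brightest of them were MRNR_003546 (10.80, 10.81 and 10.82 in normal lung and 11.15, 10.98 and 11.03 in lung tumor), AA926063, MRNR_003568 (8.76, 8.87 and 8.87 in normal lung, and 8.49 and 9.26 on the tumor arrays that kept a value) and MRNR_003508 (7.57, 7.80 and 7.80 in normal lung and 6.57, 7.75 and 7.84 in lung tumor). MRNR_003546 rose by 0.24 ± 0.06 in lung tumor (adjusted p = 0.0193), and for the last 2 the groups overlapped. Both blood arrays and no lung array detected 3 members (4.17%, compared with 2.41% of all probes). When any spot sufficed, this was 1 member (1.39%, compared with 1.84%). Oprm1 (NR_027877), an accession under the mu opioid receptor gene, had log2 signals of 10.01 and 9.44 in blood, and in lung at most 3.26. Its mean percentile was 89.1 in blood, 31.9 in normal lung and 16.3 in lung tumor. Of 5 coding Oprm1 probes, the brightest in lung gave 4.59 and 4.95 in blood, at percentiles of 48.4 and 51.9. In lung that probe was detected on no normal array and on 1 tumor array, so it was picked on signal near background. Blood values of the other coding Oprm1 probes are not given here. Dzip1-ps1 gave 6.83 and 6.33 in blood and at most 2.30 in lung, and MRNR_024509 gave 5.16 and 4.41 in blood with a spot SE of 1.36. By percentile the members that ranked highest in blood relative to lung were Oprm1 (65.0 points higher), Dzip1-ps1 (50.1), Chchd4l1 (49.2), RT1-T24-2 (48.6) and Alg3 (47.1). Oprm1 and Dzip1-ps1 were detected on no lung array, so their lung ranks lie at background and their gaps are uncertain. The coding Alg3 probe, chosen after the values were seen, gave 11.98 and 10.60 in blood.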

How the data were processed

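RNA of 3 normal lungs, 3 lung tumors and 2 blood clots was measured on 8 arrays of 1 colour (Cy3). Spot intensities read with Agilent Feature Extraction 10.5.1.1 were deposited for every array, background-subtracted and not normalized between arrays, with 0 or 1 marks for signal well above background, outliers and saturation. They also deposited log2 values, quantile-normalized by the authors in GeneSpring over all 8 arrays, which were used as an alternative. Of 24684 probes, 22 are absent from it.

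Control spots were dropped, and log2 processed signals of the other 42136 spots were quantile-normalized separately for lung and blood. Outlier-marked spots were left out, none was saturated, and each probe's spots were averaged. Lung probes had to be detected on at least 3 of 6 arrays with at least 2 values per group. The lung groups were tested in limma 3.58.1 (lmFit, eBayes) under R 4.3.3, with Benjamini-Hochberg adjustment over all probes tested. Blood was compared by fold change alone, for probes detected on at least 1 of 2 arrays. The steps were tested on simulated data. The number of arrays limits the precision.

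The fit had no replicate block.

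The members and lists were chosen with earlier results of these data known. Members named were every NR_ accession, those with the highest percentiles, and those seen in 1 tissue only. Mouse counterparts were also named for the largest called changes in lung. For blood, those with the largest differences among the members detected on both blood arrays were named. Other named counterparts were chosen after their values were seen. Neighbours were the nearest coding genes in the RefSeq table (GRCr8). Alternatives changed the normalization, background correction, filters, outlier marks, test, blocks and the arrays included. No result is given here for 1 further NR_ accession or for some of the listed genes.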

Additional observations from a re-analysis of the deposited data

How the results depend on the processing

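The counts of called members depended on the processing. Higher in lung tumor were 3 members, but 5 with a 75th percentile shift, 1 with detection required on all 6 lung arrays, 6 in the authors' normalized values and 6 with outlier-marked spots kept. Over all probes the shares were 13.5%, then 15.8%, 11.3%, 13.1% and 13.5%. Leaving out 1 array gave 3 to 5 higher and 4 to 5 lower (12.5% to 14.5% and 14.3% to 17.9% of all probes). Without lung tumor 3 there were 5 higher. Lower in lung tumor were 5 members, but 3 with near-identical arrays counted once. Higher in NNK blood were 7 members, but 4 with a 75th percentile shift, 4 under normexp and 4 in the authors' values (23.1% of all probes, then 22.3%, 10.3% and 26.2%). Lower in NNK blood were 6, but 12 with a 75th percentile shift, 11 with quantile normalization over all 8 arrays and 2 under normexp (19.1% of all probes, then 25%, 25.7% and 5.81%). Detected on all 8 arrays were 28 members, but 18 without outlier-marked spots (38.8% of all probes, then 25.9%). Detected on none were 17, but 6 when any spot sufficed (20.4% of all probes, then 12.9%). With the replicate number as a block, 3 members were higher and 5 lower (13% and 15.6% of all probes), and that block changed no member's call at 2-fold. By adjusted p at any fold it left 15 members higher and 6 lower in place of 16 and 7, with MRNR_003546 (adjusted p = 0.0621) and NR_002597 (adjusted p = 0.0809) lost. Counts over all probes dropped too, to 3719 higher and 3641 lower of 12455, from 4205 and 3918 of 12471. The labels call the tumors matched without tying the numbers to animals. Same-numbered arrays had correlations of 0.14, -0.04 and 0.16 in their deviations from the group means, and normal lung 3 with lung tumor 2 had 0.14, so the numbers were not taken as pairs. Over all probes, 1683 higher and 1929 lower calls in lung tumor became 778 and 976 with near-identical arrays counted once, 967 and 1256 under normexp, and 1090 and 1477 with the methods' t-test in its paired form. The 75th percentile shift moved the median blood difference of all probes from -0.11 to -0.26. The cause of these shifts was not tested.

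The following log2 differences between lung tumor and normal lung changed sign, and none of them had passed an adjusted p of 0.05. With a 75th percentile shift they became -0.15 for MRNR_003376, -0.044 for NR_024190, -0.15 for Atp2a2 (NR_027839) and 0.20 for Alg3 (NR_024535). Under normexp they became -0.079 for MRNR_003568, 0.047 for MRNR_003966 and -0.069 for RT1-T24-2 (NR_002151). With the scan as a block they became -0.34 for MRNR_003568, -0.075 for RT1-T24-2, 0.0088 for Alg3 and -0.14 for Atp2a2. In the authors' values they became -0.20 for RT1-T24-2 and 0.32 for Alg3, with marked spots kept -0.24 and 0.29, and with a floor of 5 on the signal -0.051 for RT1-T24-2. With near-identical arrays counted once Atp2a2 became -0.011. Leaving out 1 array gave ranges of -0.56 to 0.077 for MRNR_003508, -0.067 to 0.016 for MRNR_003966, -0.18 to 0.19 for Terc (NR_001567), -0.40 to 0.30 for RT1-T24-2, -0.24 to 0.29 for Alg3 and -0.020 to 0.12 for Atp2a2. In blood Alg3 turned to -0.15 in the authors' values and -0.40 with marked spots kept.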

Other observations

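Further lists of genes that handle noncoding RNA were set beside the members. Of 7 paraspeckle genes on the array 4 were tested, and Cpsf6, a cleavage factor subunit, was detected on all 3 tumor and no normal arrays and so passed the filter through the tumor arrays alone. Sfpq rose by 0.38 ± 0.07 on the log2 scale (limma adjusted p = 0.00614), under 2-fold, and Hnrnpk differed by -0.07 ± 0.05 (adjusted p = 0.286). Of the microRNA processing genes 3 were tested and none reached 2-fold. Tarbp2, a partner of Dicer, rose by 0.75 ± 0.09 (adjusted p = 0.000977), and Xpo5, which exports microRNA precursors, fell by 0.38 ± 0.06 (adjusted p = 0.00473). Drosha differed by 0.21 ± 0.27 (adjusted p = 0.514).

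Of the coding neighbours of the matched NR_ members, Fam50b beside Hmgb1-ps2 fell by 1.52 ± 0.29 (adjusted p = 0.00622) and Gpsm1 beside Dnlz by 1.42 ± 0.06 (adjusted p = 7.81e-05), while the members next to them rose by 0.53 and 0.38. Vps33b beside Ngrn rose by 0.74 ± 0.07 (adjusted p = 0.000355) and Card9 on the other side of Dnlz by 0.91 ± 0.14 (adjusted p = 0.00269).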
